A study of Bos taurus with 12 samples.

Results

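Heat shock proteins and the cochaperones that work with them were followed in the mammary gland of feed-restricted dairy cows, as a set of 10 genes: HSPA1A, HSPA8, HSPA9, HSPH1, DNAJB1, HSP90AA1, HSP90AB1, HSPB1, HSPD1 and HSPE1. The members were the array probes whose RefSeq transcript carries one of these symbols. All 10 genes were measured, out of 7932 genes tested, by 35 of the 19406 probes tested. The samples were mammary biopsies of 6 lactating, multiparous Holstein cows named in the labels, each taken before and at the end of a feed restriction. In the control period (CONT, day 0) the cows ate a lactation diet ad libitum. In the restriction period (REST, day 6) the same cows received an allowance set to cover 50% of their net energy requirement for lactation. REST followed CONT in every cow and the biopsies alternated between the sides of the rear udder, so the diet, the order of the biopsies and the earlier biopsy cannot be told apart. The study's text speaks of 5 Holstein cows after 1 was excluded for mastitis and does not name that cow, while its array methods count 12 samples, as the labels do. The tests were therefore repeated with every cow omitted once.

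Chaperones bind unfolded proteins, keep them from aggregating and help them to fold. HSP70 proteins bind and release short exposed stretches of a client in an ATP-driven cycle, which J-domain proteins such as DNAJB1 start and nucleotide exchange factors such as HSPH1 reset. HSP90 proteins take over clients that are nearly folded, among them steroid hormone receptors and kinases. Small heat shock proteins such as HSPB1 hold unfolded clients without ATP, and HSPD1 with its lid HSPE1 forms the folding chamber of the mitochondrial matrix. Stress switches on the inducible members through heat shock factor 1 (HSF1), while HSPA8 and HSP90AB1 are made constitutively. In the lactating gland these proteins serve a tissue that synthesizes and secretes protein at a high rate.

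The biopsies held the transcripts of a lactating gland: the mean log2 signal of CSN3 (kappa-casein) in CONT was 9.98 above the array's 75th percentile, and ELF5, a transcription factor of the secretory lineage, stood at 7.11. All values below are log2 signals relative to the 75th percentile of their array, and a change is REST minus CONT within a cow. A biopsy is a piece of tissue, so fewer cells of a type and less RNA per cell cannot be told apart. The 12 arrays lay on 3 slides, each with both periods of 2 cows. The slide of cows 5 and 6 was dimmer, with a 75th percentile of 73.2 to 117 intensity units against 252 to 390.0 on the others and 41.9 to 48.0% of probes well above background against 61.8 to 67.9%. Within the cows, the 75th percentile itself was higher in REST by 0.30 ± 0.10 on the log2 scale (SD, n = 6 cows, 6 of 6, two-sided exact sign-flip test, p = 0.0312, the smallest this design allows), and its part in the results was not tested beyond the other normalizations given at the end.

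HSPA1A, the stress-inducible HSP70, was the one member called: it was higher in REST on its 2 brightest probes, which were well above background on all 12 arrays. On the probe of highest signal, CONT values ran from -0.76 to 0.16 with a median of -0.09, and REST values from -0.44 to 0.98 with a median of 0.41. The groups overlapped, and cow 1 was the lowest in both periods, yet every cow was higher in REST than in her own CONT sample. The changes were 0.32 in cow 1, 0.49 in cow 2, 0.48 in cow 3, 0.36 in cow 4, 1.05 in cow 5 and 0.45 in cow 6. The mean change was 0.53 ± 0.11 (SE, n = 6 cows), a 1.44-fold rise with a 95% interval of 0.28 to 0.77 and an adjusted p of 0.0263 by limma with the cow as a block. With the cow left out of the model the same change had an adjusted p of 0.234 and was not called.

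The probe of next highest signal had a change of 0.54 (adjusted p = 0.0171, and 0.143 without the cow in the model). The other 2 probes had changes of 0.78 (adjusted p = 0.0046) and 0.52 (0.055). They cleared the background limit on 4 of the 6 CONT arrays and on all 6 REST arrays. The CONT arrays below the limit were those of cows 5 and 6, on the dim slide. Both probes were therefore tested only through the period in which they were higher. Their calls, including that of the first of them without the cow (adjusted p = 0.0992), are no further support. These sizes also depended on the processing: in the alternative with normexp, which starts from the median spot signal and adds an offset of 50, the 4 probes in order of signal had changes of 0.40, 0.26, 0.26 and 0.13, and the last was not called (adjusted p = 0.361). Over all cows and probes, the single lower REST value was that of cow 6 on the dimmest probe (-0.15). Cow 5, which had by far the largest change on the first probe, did not stand apart on the others, where her changes lay between 0.37 and 0.74. Without a filter on dim probes 1 of the 4 probes was called, that with the change of 0.78. Within the slides the mean change of the first probe was 0.41, 0.42 and 0.75. HSPA1A is listed in RefSeq (assembly ARS-UCD2.0) with HSPA1B among its synonyms. No probe sequences were compared, so whether these probes separate near-identical copies was not tested. The neighbouring relative HSPA1L was well above background on no array, and the separate HSP70 gene HSPA2 had a change of 0.07 (95% interval -0.28 to 0.42, adjusted p = 0.803).

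**Figure D1:**
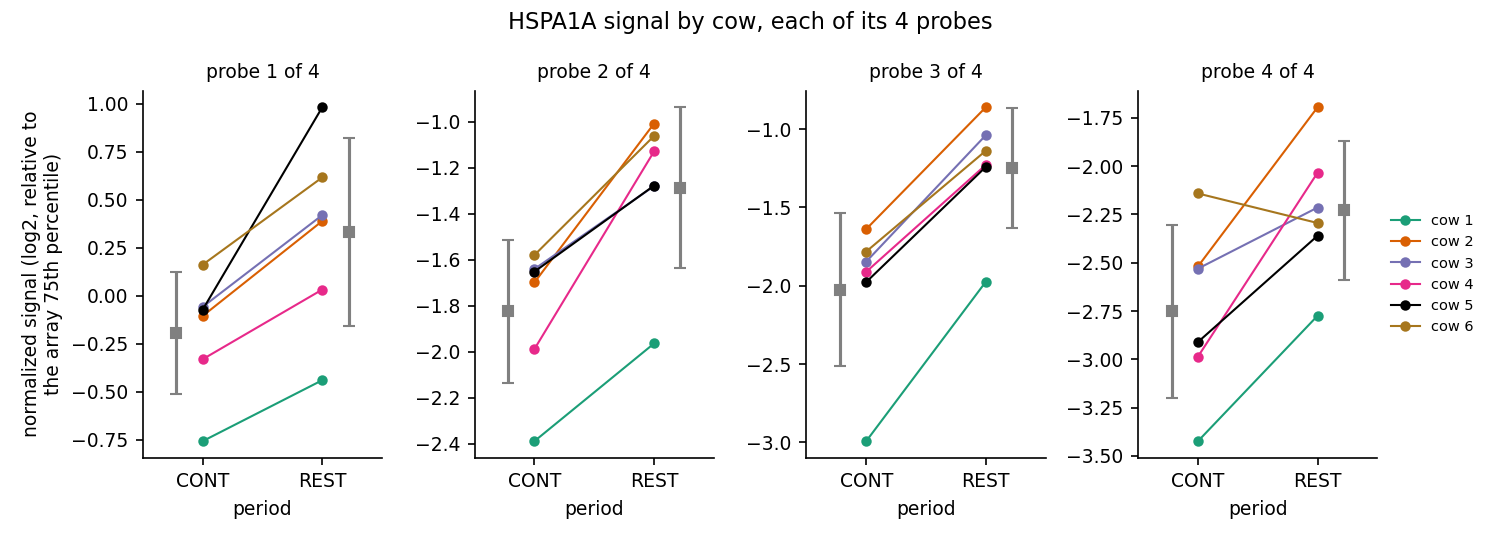
Normalized log2 signal of HSPA1A in CONT and REST on each of its 4 probes, in order of signal, with a line per cow and grey squares for the group mean ± SD (n = 6); each panel has its own vertical scale. All lines rise except that of cow 6 on the rightmost probe, which fell by 0.15, and cow 1 is the lowest in both periods on every probe.

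Across the set, 1 of 10 genes was called at an adjusted p of 0.1 with the cow as a block, against 16.2% of all 7932 genes tested (6.95% higher and 9.27% lower). Without the block 0 of 10 were called, against 4.41% of all genes. By probe, 4 of 35 were called, against 16% of all probes, and without the block 1 of 35, against 4.31%; these include the 2 HSPA1A probes tested only through REST. The CONT and REST values overlapped for all 10 genes on their probe of highest signal, while 2.28% of all genes had groups that did not overlap. The share of members called was thus no higher than that of all genes. The median change of the 10 genes was 0.06, beside -0.01 for all genes, and without HSPA1A it was also 0.06. In the 6 cows in turn this median was -0.04, 0.08, 0.06, 0.02, 0.25 and -0.06. Cow 5 had the largest change of the 6 for 4 of the 10 genes. The 31 probes of the other 9 genes had changes between -0.18 and 0.48 and adjusted p values between 0.177 and 0.964. A single one of these had an unadjusted p under 0.05, a probe of HSP90AB1 (change 0.28, adjusted p = 0.177), and it is named here after its value was seen.

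**Figure D2:**
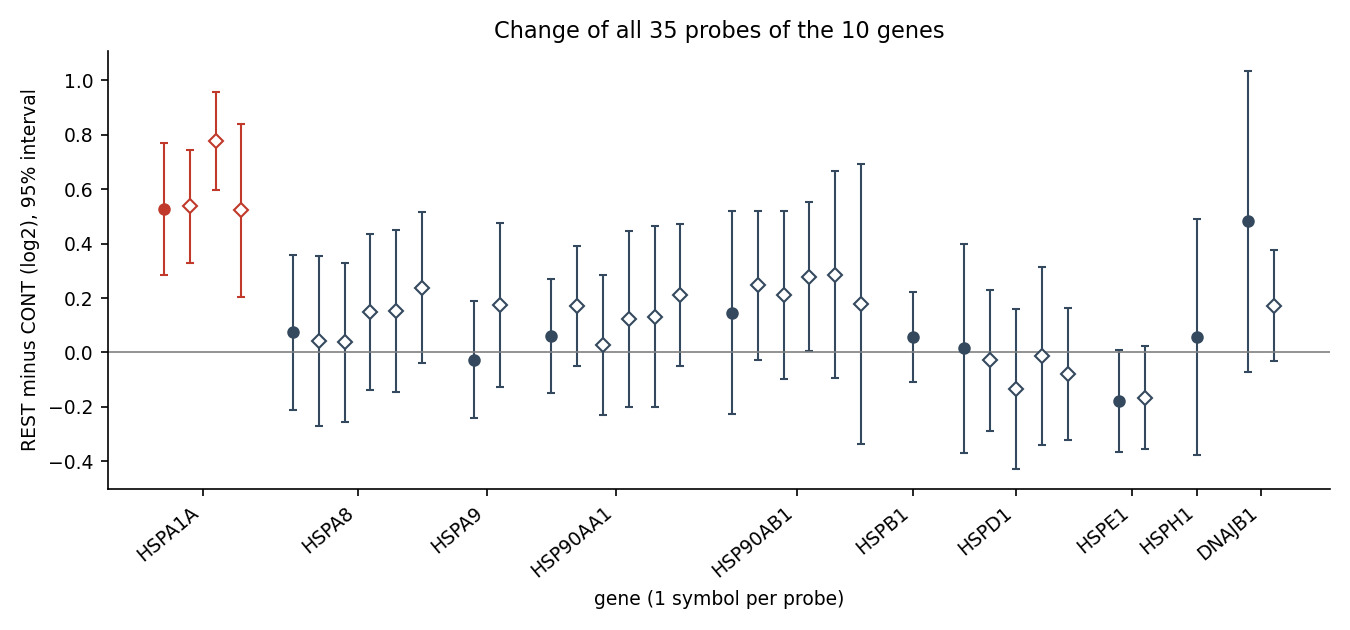
Change from CONT to REST (log2) of all 35 probes with its 95% interval from the model with the cow as a block (n = 6 cows); filled circles mark the probe of highest signal of each gene, open diamonds its other probes, and red the probes called at an adjusted p of 0.1. The 4 probes of HSPA1A are the called ones, while the intervals of the others reach 0 or, for 1 probe of HSP90AB1, end just above it at 0.0039.

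The constitutive HSP70, HSPA8, which also strips clathrin from vesicles, did not pass the test on any of its 6 probes. On the brightest one CONT ran from 4.81 to 5.65 (median 4.96) and REST from 4.91 to 5.36 (median 5.17), a change of 0.07 (95% interval -0.21 to 0.36, adjusted p = 0.735). The groups overlapped throughout and 3 of 6 cows were higher in REST. All cows but cow 6 nevertheless each kept their own direction on every probe. Cows 2, 3 and 5 were higher in REST on 6 of 6 probes, and cows 1 and 4 were lower on 6 of 6. Cow 6 was lower on 5 probes and higher on 1, with changes from -0.10 to 0.09. In cow 5 the changes lay between 0.41 and 0.62 and in cow 1 between -0.41 and -0.20. The change of HSPA1A was larger than that of HSPA8, HSPA9, HSP90AA1, HSPB1, HSPE1 and HSPH1 in 5 or 6 of 6 cows, but larger than that of HSP90AB1, HSPD1 and DNAJB1 in 4 of 6. Its mean change exceeded that of DNAJB1 by 0.04, and these differences were not tested.

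The cochaperones of HSP70 had the widest ranges of change between cows on the probe of highest signal, but not on every probe. DNAJB1, the J-domain protein that pairs with inducible HSP70, ran from -0.28 to 0.41 in CONT (median -0.02) and from 0.09 to 1.71 in REST (median 0.25) on its brighter probe. That change of 0.48 had a 95% interval of -0.07 to 1.04 and an adjusted p of 0.235. It rested on cow 5, whose change was 1.98 against 0.00 to 0.54 in the others, and it was 0.18 without her. The second DNAJB1 probe disagreed on that cow, with -0.10 in cow 5 and a mean of 0.17 (adjusted p = 0.253), so the rise in cow 5 was seen on 1 of 2 probes. HSPH1, the HSP110 that releases ADP from HSP70, had a single probe, with CONT from 0.59 to 1.65 (median 1.45) and REST from 1.08 to 1.72 (median 1.39). Its change was 0.06 (95% interval -0.38 to 0.49, adjusted p = 0.874), with 1.01 in cow 5, whose CONT value was the lowest of all. Without cow 5 the change was -0.13, and without cow 3 it was -0.02, so its sign was not settled.

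The HSP90 genes had mean changes above 0 on every probe, and none passed the test. HSP90AA1, the inducible form, ran from 4.17 to 4.81 in CONT (median 4.46) and from 4.24 to 4.79 in REST (median 4.49), a change of 0.06 (95% interval -0.15 to 0.27, adjusted p = 0.713). The changes of its 6 probes lay between 0.03 and 0.21. Cow 5 was higher in REST on 6 of 6 probes, by 0.45 to 0.92, and had the largest change of all cows on 5 of them. Cow 1 was lower on 6 of 6. Without cow 5 the change of the brightest probe was -0.02.

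HSP90AB1, the constitutive HSP90, ran from 5.55 to 6.30 in CONT (median 5.68) and from 5.65 to 6.25 in REST (median 5.95). Its change was 0.15 (95% interval -0.23 to 0.52, adjusted p = 0.601), and those of its 6 probes lay between 0.15 and 0.29. Cows 1, 2 and 4 were higher in REST on 6 of 6 probes and cow 6 was lower on 6 of 6. On the brightest probe the mean changes within the slides were 0.64 and 0.16 on the brighter slides and -0.36 on the dim slide, where cow 5 had -0.65. Cow 5 was lower on 3 of the 6 probes and higher on the other 3, by up to 0.52. With a cow omitted the change ran from 0.04 (without cow 1) to 0.30 (without cow 5). Leaving out the dim slide, a choice made after seeing the arrays, gave a change of 0.40 that passed the test (adjusted p = 0.0985, n = 4 cows).

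HSPB1, the small heat shock protein known as HSP27, differed little between the periods. CONT values ran from 5.75 to 6.59 (median 6.02) and REST values from 5.80 to 6.51 (median 6.13). The change of its 1 probe was 0.06, with the narrowest interval of the set (-0.11 to 0.22, adjusted p = 0.646), and it lay between -0.07 and 0.17 in the 6 cows.

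The mitochondrial chaperones did not pass the test in either direction. HSPE1, the lid of the chaperonin, ran from 3.88 to 4.39 in CONT (median 4.14) and from 3.91 to 4.11 in REST (median 3.93), a change of -0.18 (95% interval -0.36 to 0.01, adjusted p = 0.197). It was lower in REST in 5 of 6 cows, and its second probe gave -0.17 (adjusted p = 0.231). HSPD1, the chaperonin itself (HSP60), ran from 2.64 to 3.24 in CONT (median 2.90) and from 1.88 to 3.39 in REST (median 3.18) on its brightest probe, a change of 0.02 (95% interval -0.37 to 0.40, adjusted p = 0.964). Its other 4 probes had changes between -0.13 and -0.01. Cows 2 and 4 were higher in REST on 5 of 5 HSPD1 probes and cows 5 and 6 lower on 5 of 5. These cows thus changed in opposite directions while the mean stayed near 0. HSPD1 and HSPE1 are next to each other in RefSeq (ARS-UCD2.0). HSPA9, the HSP70 of the matrix (mortalin), ran from 3.04 to 3.57 in CONT (median 3.36) and from 3.12 to 3.81 in REST (median 3.18). Its 2 probes gave -0.03 (95% interval -0.24 to 0.19, adjusted p = 0.881) and 0.17 (adjusted p = 0.424), which differ in sign.

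**Figure D3:**
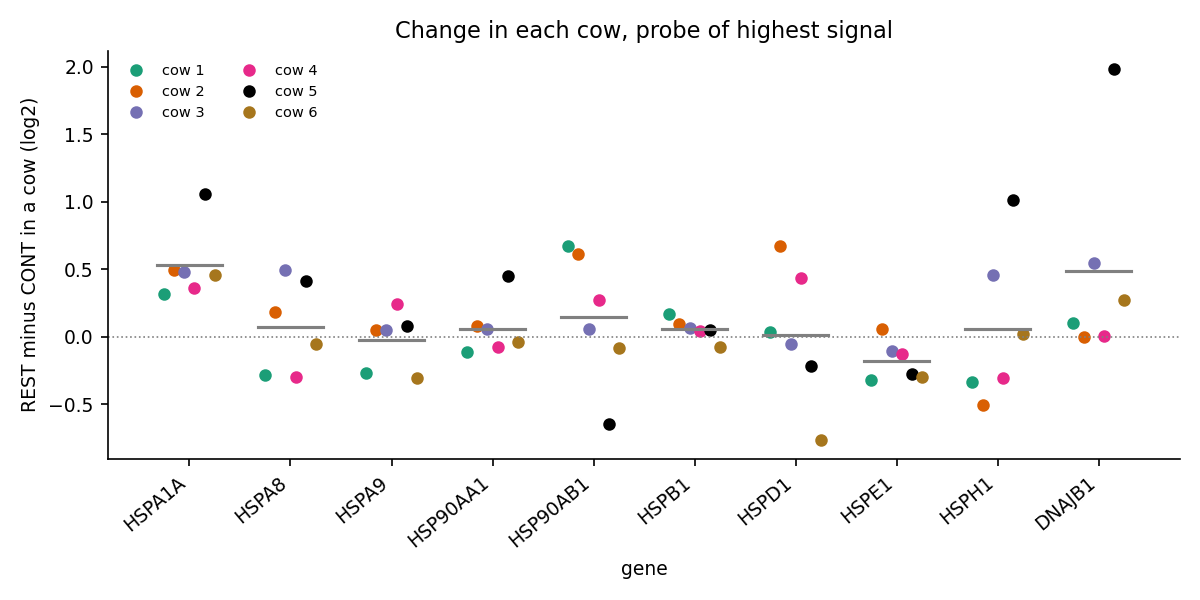
Change from CONT to REST (log2) of each of the 10 genes on its probe of highest signal, with a point per cow and a grey bar for the mean of 6 cows. HSPA1A has all 6 points above 0, from 0.32 to 1.05, and cow 5 (black) stands far above the others for DNAJB1 (1.98) and HSPH1 (1.01).

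The genes around the set give the rest of the pathway, and each list's count is to be read against the 6.95% of all genes called higher and 9.27% called lower. Of the heat shock factors and their regulator, 1 of 4 tested genes was called: HSBP1, a protein that binds HSF1 and is known as its negative regulator, was lower in REST with a change of -0.29 (95% interval -0.45 to -0.12, adjusted p = 0.0467, lower in 6 of 6 cows). The study named HSBP1 from these same samples, so this is no independent evidence. It was called on 1 of its 2 probes (the other -0.24), and without the block its adjusted p was 0.212. HSF1 itself had a change of 0.04 (95% interval -0.19 to 0.27, adjusted p = 0.843). Among 5 other HSP70 and HSP110 relatives none was called in either direction. Of 20 further J-domain proteins, 2 were called higher (DNAJB6, 0.33, adjusted p = 0.0789, and DNAJC2, 0.25, adjusted p = 0.0797) and 2 lower (DNAJB5, -0.78, adjusted p = 0.0313, and DNAJB12, -0.28, adjusted p = 0.063), with a median of -0.08 over the list; the share called was near that of all genes. DNAJB5 was the one of these still called without the block (adjusted p = 0.0631) and with every cow omitted once (0.0223 to 0.0922), but its change was -0.38 and -0.29 under the normexp settings, and it was not called by the methods' paired test (adjusted p = 0.108) or without a filter on dim probes (0.134). DNAJB6 and DNAJC2 lost the call whichever cow was omitted (adjusted p = 0.103 to 0.191 and 0.128 to 0.159), DNAJB12 without cow 1, 2, 4 or 5 (up to 0.157), and HSBP1 without cow 2, 3 or 4 (up to 0.130). DNAJB6 was also not called by the methods' paired test (adjusted p = 0.138). DNAJC2 sits at the ribosome and DNAJB12 in the membrane of the endoplasmic reticulum.

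Among 9 regulators of the HSP70 cycle, BAG3, a nucleotide exchange factor that links HSP70 to the small heat shock proteins, was called lower (-0.29, adjusted p = 0.0452, 0.265 without the block), but on 1 of its 2 probes, the other giving 0.03. That call was lost without cow 2 (adjusted p = 0.130) or cow 4 (0.118), and with the slide as the block (0.162). None of the 21 HSP90 cochaperones tested was called, with a median change of -0.03 and changes from -0.28 to 0.28. STIP1, which hands clients from HSP70 to HSP90, had a change of 0.08 (adjusted p = 0.598), and AHSA1, which speeds up the HSP90 cycle, one of -0.05 (adjusted p = 0.66). Of the 13 chaperones of the endoplasmic reticulum none was called. HSPA5, the HSP70 of that compartment, had a change of -0.21 (95% interval -0.88 to 0.45). Of the 17 genes of the cytosolic chaperonin TRiC and of prefoldin, 1 was called lower, PFDN6 (-0.35, adjusted p = 0.0418, 0.187 without the block, and up to 0.126 without cow 1, 2 or 4).

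Of 5 other small heat shock proteins tested, 3 were called higher in REST and none was called lower, with a median of 0.45 and changes from -0.28 to 1.29. CRYAB (alpha-B crystallin, a partner of HSPB1 in mixed oligomers) ran from 0.13 to 1.07 in CONT (median 0.73) and from 1.24 to 2.57 in REST (median 1.83). These groups did not overlap. CRYAB rose by 1.29 (95% interval 0.82 to 1.75, adjusted p = 0.0132, and 0.0118 without the block), with 1.92, 1.12 and 0.82 within the slides. Its neighbour HSPB2 (0.63, adjusted p = 0.0329, higher in 5 of 6 cows) rose on both of its probes, and HSPB8, which binds BAG3 (0.45, adjusted p = 0.0367, 0.355 without the block), on 2 of 3. Of 17 genes of mitochondrial protein quality control, none was called higher and 4 were called lower, with a median of -0.14; 1 of the 17 had a change above 0. TRAP1, the mitochondrial HSP90, fell from a CONT range of 2.18 to 2.68 to a REST range of 1.58 to 2.13, and again the groups did not overlap. Its change was -0.60 (95% interval -0.82 to -0.38, adjusted p = 0.0137, and 0.0174 without the block), and both probes were called. The protease subunit CLPP (-0.38, adjusted p = 0.0317, on 1 of its 2 probes, the other -0.23), the inner membrane protease YME1L1 (-0.38, adjusted p = 0.0379) and the disaggregase CLPB (-0.25, adjusted p = 0.0839) were the others called, CLPB not without the block (adjusted p = 0.352). CRYAB, TRAP1 and CLPP were called with every cow omitted once. CLPB lost its call whichever cow was omitted (adjusted p = 0.107 to 0.220), YME1L1 without cow 1, 2 or 4 (up to 0.113), HSPB8 without cow 2 or 4 (up to 0.110) and HSPB2 without cow 2 (0.101). With the slide as the block, HSPB8 (adjusted p = 0.182) and CLPB (0.245) were not called. HSPB2 was not called by the methods' paired test (adjusted p = 0.104).

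**Figure D4:**
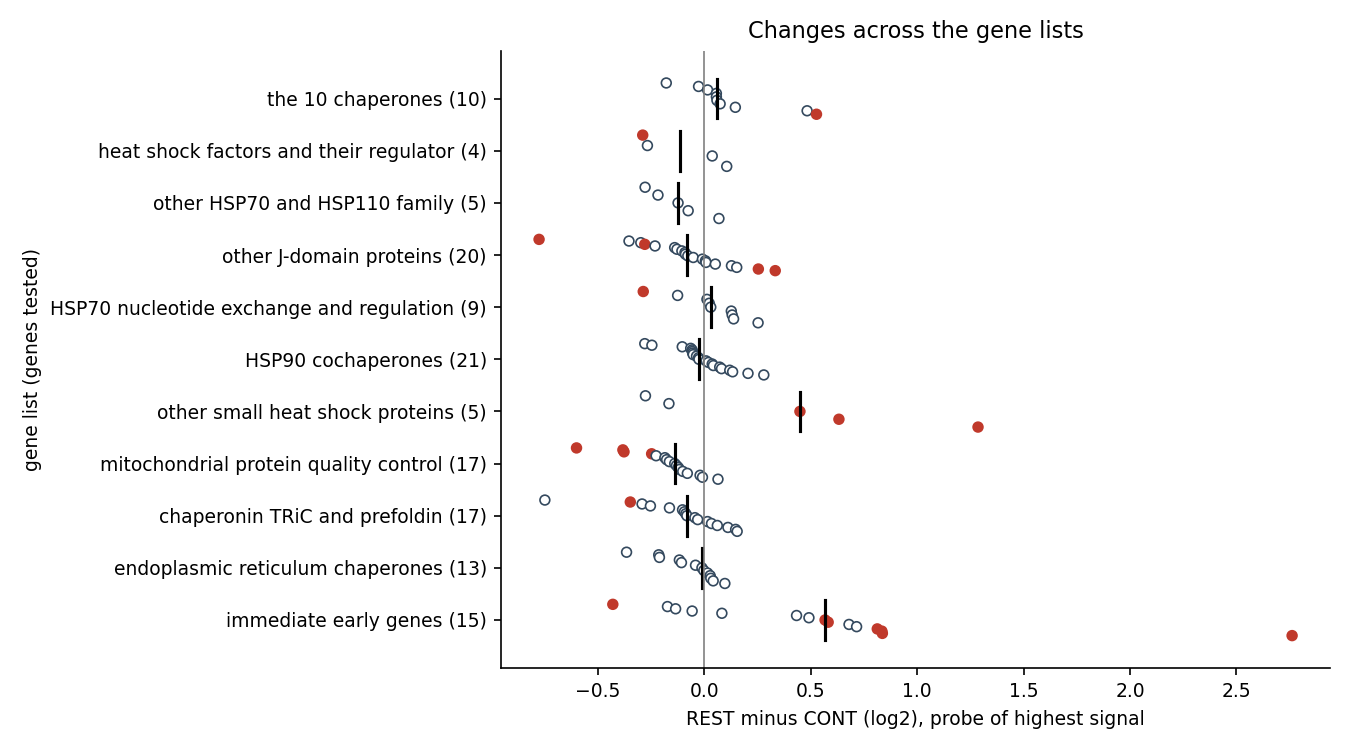
Change from CONT to REST (log2) of each tested gene of the 10 chaperones and of 10 gene lists, a point per gene on its probe of highest signal; red points are called at an adjusted p of 0.1 with the cow as a block, and black bars are list medians. The small heat shock proteins (median 0.45) and the immediate early genes (median 0.57) lie to the right, the mitochondrial genes (median -0.14) mostly to the left, and the 10 chaperones (median 0.06) near 0 apart from HSPA1A and DNAJB1.

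Transcripts outside the chaperone system were called as well. Immediate early genes, which cells switch on within minutes of many stimuli, were called higher for 6 of 15 tested and lower for 1, with a median of 0.57. This count and median include FOS and EGR1, which cleared the background limit on all 6 REST arrays but on 4 and 5 of the 6 CONT arrays. They were tested only through the period in which they were higher, so their calls are no support for the list. The FOS change was 2.76 (adjusted p = 0.00076, and 0.0072 without the block), and 1.51 and 1.57 under the normexp settings. The EGR1 change was 0.83 (adjusted p = 0.0658, and 0.0889 without the block), and 0.45 and 0.46 under the normexp settings. JUNB (0.84, adjusted p = 0.0213) and JUN (0.81, adjusted p = 0.0587, on 2 of its 3 probes), well above background on all arrays, were called, but not without the block (adjusted p = 0.169 and 0.152), and JUN not with the slide as the block (0.104). EGR1 lost its call without cow 1, 2, 4 or 5 (adjusted p up to 0.178) and JUN without cow 1, 2 or 4 (up to 0.165). The methods' paired test called neither EGR1 nor JUN (adjusted p = 0.185 and 0.172). Of the markers of cell types a biopsy can hold, 3 of 8 luminal epithelial ones were called higher (KRT8, KRT18 and KRT7). CSN3 was called lower. The 8 had summed linear levels of 2052 to 2759 times the 75th percentile in CONT and 1704 to 2261 in REST. That sum gives most weight to the brightest transcripts, among them CSN3, while 5 of the 8 had changes above 0 (median 0.23). The 2 called of 8 endothelial markers, VWF and CLDN5, were higher, and the summed level went from 18.5 to 29.6 in CONT to 27.5 to 36.9 in REST. Of 9 myoepithelial markers 1 was called higher and 2 lower (summed 126 to 235 in CONT and 116 to 223 in REST). Of 8 fibroblast markers 1 was called higher (37.0 to 67.4 and 28.5 to 78.2), and of 9 leukocyte markers 1 was called higher (28.7 to 38.9 and 32.9 to 40.6). Of 3 skeletal muscle markers 1 was called lower (4.78 to 6.56 and 4.70 to 7.66), and neither of 2 erythrocyte markers was called (13.9 to 20.3 and 10.4 to 20.7). The 1 adipocyte marker tested, FABP4, was lower (141 to 210 and 98.0 to 145), while PLIN1, CIDEC, LEP, AQP7 and LIPE were too dim to be tested. Without the block VWF and CLDN5 kept their calls (adjusted p = 0.0539 and 0.0569), and all other marker calls were lost. The part of the early genes and of cell composition in the change of HSPA1A was not tested.

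The genes whose signal followed HSPA1A most closely over the 12 arrays were GPNMB (Pearson's r = 0.947), HACD3 (r = 0.902) and GSN (r = 0.895). Their changes were 0.94, 0.36 and 0.59, and since the arrays compared include both periods, a rise shared with HSPA1A was part of what chose them. For HSPD1 they were FAM149B1 (r = 0.951), ZC3H10 (r = 0.900) and ADSL (r = 0.877), and none of these was called between the periods. These coefficients describe 12 arrays that share 6 cows and 3 slides, and they were the highest of all tested genes.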

How the data were processed

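Each of 12 one-colour Agilent bovine arrays (Cy3) held 1 biopsy: 6 cows, CONT and REST. The deposited scanner files, made by the authors with Agilent Feature Extraction 11.0.1.1, give a background-corrected, spatially detrended intensity per spot (the processed signal); depth does not apply and the number of arrays limits the precision. A table of the authors' values held the same intensities. Control spots and spots marked as outliers (1 to 13 per array) were left out, 50 repeated probes were averaged, and log2 intensity was taken relative to the array's 75th percentile, as in the study's methods. Of 43653 probes, 62.2% had a symbol through RefSeq (ARS-UCD2.0), for 12787 genes. A probe was tested if well above background on all arrays of at least 1 period, and a gene is represented by its tested probe of highest mean signal. limma 3.58.1 (R 4.3.3) fitted period with the cow as a block, with Benjamini-Hochberg adjustment over all 19406 probes and a threshold of 0.1: 1402 probes were higher and 1703 lower. The study's methods name no pairing; the labels give both samples of each cow, and deviations from the period means correlated at 0.356 to 0.574 within cows and at -0.326 to 0.134 between cows, so the cow was kept and calls lost without it are given beside the results. The fit was also run on simulated data, independent normal noise around the cow means. That run checked the fitting steps only and is no support for the results. Normexp used the median spot signal, where the plan had named the mean spot signal. Alternatives were other normalizations, filters, blocks, tests, probe averaging, and each cow left out. The genes named are all members, the called heat shock factor genes, at most 4 called genes of each other list, a few well-known genes of the lists that were not called (chosen after their values were seen), and for HSPA1A and HSPD1 the 3 genes of most similar signal. Members and lists were chosen with earlier results of these data known.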

Additional observations from a re-analysis of the deposited data

Results flagged for a closer look

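Values of 1 cow lay apart from the other 5 in 9 of 84 sets of 6 values examined for the named genes. Chance alone marks about 1 in 20 such sets (4.2 of 84). Each ratio below is the gap to the nearest other cow divided by the range, and 0.625 is Dixon's critical value for 6 samples.

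Cow 5 accounted for 6 of them. Her change in HSPA1A was 1.05 against 0.32 to 0.49 in the others (ratio 0.760), on 1 of 4 probes. Her change in HSP90AA1 was 0.45 against -0.11 to 0.08 (ratio 0.665), and for DNAJB1 it was 1.98 against 0.00 to 0.54 (ratio 0.725). The DNAJB1 signal in REST was 1.71 in cow 5 and 0.09 to 0.50 in the others (ratio 0.746). In CONT her HSPH1 signal was 0.59 against 1.26 to 1.65 (ratio 0.634), and her CLPB signal was -1.69 against -1.34 to -1.17 (ratio 0.679). Cow 5 was on the dim slide, and its part in these values was not tested.

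Cow 4 had an HSPA9 signal of 3.81 in REST against 3.12 to 3.32 in the others (ratio 0.711). Cow 2 had an FOS signal of 2.23 in REST against -0.61 to 0.41 (ratio 0.638) and an FOS change of 3.65 against 2.28 to 2.74 (ratio 0.669).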

How the results depend on the processing

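On its probe of highest signal (or the mean of its probes) the HSPA1A change stayed positive under every alternative run, between 0.40 and 0.59. It was called under all but 2 of them: without a filter on dim probes (adjusted p = 0.123) and without the replicate block (0.234). With each cow left out in turn it was 0.42 to 0.57 with adjusted p values of 0.0282 to 0.078. The number of members called was 0 without the filter and 0 without the replicate block, 2 without slide 3 (added after seeing its brightness; HSPA1A and HSP90AB1), and 1 to 1 with each cow left out. Probes called numbered 3105, but 388 without the filter, 837 without the replicate block, 1899 with the slide as a block, 1853 by the methods' t-test (paired), and 1044 (without cow 2) to 3292 with cows left out, with 1531 without cow 1 and 1192 without cow 4. The median change of the members was 0.03 to 0.10 with cows left out, 0.10 by quantile normalization and 0.13 by normexp with the percentile shift. The cause of these shifts was not tested.

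Changes near 0 turned sign. HSPA9 became 0.0248 by quantile normalization, 0.0268 and 0.0027 by normexp with the percentile shift and with quantiles, 0.0173 without slide 3 and 0.0739 as the mean of its probes, and ran from -0.0804 to 0.0292 with cows left out (0.0211 without cow 1, 0.0292 without cow 6). HSPD1 became -0.0479 as the mean of its probes and ran from -0.116 to 0.172 with cows left out (-0.116 without cow 2, -0.0676 without cow 4). HSPA8 ran from -0.0095 (without cow 3) to 0.149. HSPH1 became -0.172 without slide 3 and ran from -0.135 (without cow 5) to 0.169, with -0.0239 without cow 3. HSP90AA1 became -0.0133 without slide 3 and ran from -0.0182 (without cow 5) to 0.0934. Of all member values under alternatives, 191 kept direction and call, 16 turned sign, 1 gained a call and 2 lost it. Alternatives were run for the called chaperone list genes named and for FOS, JUNB, EGR1 and JUN: 285 values kept both and 91 lost the call, none turning sign. Without the filter, all of these but CRYAB, TRAP1 and FOS lost it. With normexp and the percentile shift, changes shrank by over 1.5 times for HSPE1 (-0.109), HSBP1 (-0.177, not called), DNAJB12 (-0.171, not called), DNAJB5, FOS and EGR1, and grew by as much for HSPA8 (0.146), HSP90AA1 (0.101), HSP90AB1 (0.243), HSPB1 (0.144) and HSPD1 (0.116), none of these 5 called. Quantile normalization gave 0.125 for HSPA8, 0.126 for HSP90AA1, 0.0537 for HSPD1 and -0.118 for HSPE1, none called. Changes also shrank with normexp and quantiles for CLPB (-0.154, not called), and as the mean of its probes for BAG3 (-0.129, not called). The alternatives were not run for markers, genes of like signal and list genes not called, apart from the fit without the block for markers and list genes.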
